A study of Homo sapiens with 12 samples.

Results

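HCC1954 and SKOV3, cancer cell lines known to carry extra copies of the HER2 gene ERBB2, were compared with MDA-MB-231 and OVCAR8, which are not known to carry them. HCC1954 and MDA-MB-231 come from breast cancers and SKOV3 and OVCAR8 from ovarian cancers, so that each class held 1 line of each tissue. All 12 RNA-seq libraries of the series were used, 6 HER2-amplified and 6 non-amplified. Each line gave a control library (EV, named as parental in the labels) and a library each of cells stably expressing wild type SIVA (SIVA-WT) or its D160N mutant (SIVA-D160N). The study describes the transfectants of HCC1954, SKOV3 and OVCAR8 as polyclonal. The HER2 class came from knowledge of the lines and not from the labels, no DNA copy number was measured here, and with 2 lines per class HER2 status cannot be told apart from any other feature that both amplified lines share, such as the activating PIK3CA mutations both are known for. The question was which genes differed between the classes in both lines of each.

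HER2 is a receptor tyrosine kinase of the EGFR family. It has no known ligand of its own and signals by pairing with the other receptors of the family, through adaptors such as GRB2 and SHC1, to the PI3K-AKT and RAS-ERK pathways. Its gene lies at 17q12, and in cancers the extra copies usually cover neighbouring genes as well, so that a group of genes with unrelated functions is raised together. The smallest region that amplified breast cancers tend to share holds STARD3, PGAP3, ERBB2, MIEN1 and GRB7.

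ERBB2 and PGAP3 start 37 bases apart on opposite strands of chromosome 17, and their promoter sequences are shown because the levels of both genes were far higher in both amplified lines. Each sequence runs from 250 bases before to 50 bases after the start of the gene in RefSeq on GRCh38.p14. This is chr17:39687844-39688143 on the plus strand for ERBB2 and chr17:39688008-39688307 on the minus strand for PGAP3. Reads were counted per gene, so which start of transcription the lines used was not measured. The 2 windows overlap by 136 bases. Capitals mark CCGGAA or its reverse complement, letters typical of sites for ETS transcription factors, searched on both strands.
ERBB2: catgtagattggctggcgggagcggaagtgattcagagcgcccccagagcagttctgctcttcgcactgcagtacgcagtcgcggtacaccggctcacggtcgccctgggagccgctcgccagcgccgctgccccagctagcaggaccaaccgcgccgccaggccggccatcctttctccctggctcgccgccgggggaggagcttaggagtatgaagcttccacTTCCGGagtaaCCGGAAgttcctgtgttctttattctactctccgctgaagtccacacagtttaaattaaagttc
PGAP3: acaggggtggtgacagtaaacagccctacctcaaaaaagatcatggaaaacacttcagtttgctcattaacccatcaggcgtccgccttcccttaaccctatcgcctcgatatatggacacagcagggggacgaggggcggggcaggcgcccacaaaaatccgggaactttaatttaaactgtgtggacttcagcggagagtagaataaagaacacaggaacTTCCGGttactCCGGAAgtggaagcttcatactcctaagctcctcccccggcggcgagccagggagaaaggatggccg
Both windows hold the same pair of matches, at GRCh38 positions 39688069 to 39688074 and 39688080 to 39688085. Of 35116 RefSeq promoter windows of this length, 17.2% held at least 1 match, so the letters alone are common. The table of sequences held windows for 6 of the 12 genes PPP1R1B, STARD3, TCAP, PNMT, PGAP3, ERBB2, MIEN1, GRB7, IKZF3, NEUROD2, GSDMB and ORMDL3.

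The libraries held 35791455 to 45890398 reads counted in genes, with 35791455 to 43898026 in the amplified lines and 37938618 to 45890398 in the others. No libraries were identical. The HCC1954 control library had 0 reads for SIVA1, the gene for SIVA, where the control libraries of the other lines had 28.3 to 66.2 CPM (reads of a gene scaled to the size of its library after adjustment by the trimmed mean of M values), so the class counts and the interactions of ERBB2, DIO2 and FLNC were also computed without it, whereas a ratio to the control within HCC1954 rests on that library. All CPM values are comparable between libraries for 1 gene but not between genes, since they are not divided by gene length.

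The cell line was the replicate, and the 3 libraries of a line were summed for the test. Of 19672 genes tested, none passed both thresholds (FDR 0.05, and 1.5 log2 units either way) by the quasi-likelihood test of edgeR (0% called, smallest FDR 0.614). At an unadjusted p under 0.05 the test gave 1444 genes, 805 higher (4.09%) and 639 lower (3.25%) in the amplified lines, where 983.6 were the number given by chance. On the same data limma-voom with the line as a random block called 96 genes, and DESeq2 on the summed counts called 900. The limma-voom fit kept the 12 libraries apart, with 1 correlation within a line (0.88) for all genes. In it the 3 libraries of a line count in part as replicates of the class, so its FDRs do not rest on the spread between lines alone. The exact two-sided permutation test over 4 lines cannot give a p below 0.333. Genes are therefore described by whether the classes overlapped, that is, whether the lowest of the 6 libraries of one class lay above the highest of the other. This held for 1946 genes that were higher (9.89%) and 1882 that were lower (9.57%) in the amplified lines, together 19.5%. Grouped by tissue, the libraries of 13.3% of the genes did not overlap. With a gap of at least 1 log2 unit between the classes there were 459 genes higher (2.33%) and 404 lower (2.05%). The median absolute log2 difference was 0.54 between HCC1954 and SKOV3 and 0.47 between MDA-MB-231 and OVCAR8. Between the class means it was 0.44, but each class mean averages 2 lines, which narrows the difference. These values therefore do not rank the differences within and between the classes.

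ERBB2 (ENSG00000141736; RefSeq gene at chr17:39688094-39728658, plus strand) was the check of the class given to each line. In HCC1954 its level was 9174, 7598 and 5693 CPM, in the order EV, SIVA-WT and SIVA-D160N. In SKOV3 it was 12108, 8840.4 and 5965 CPM. The non-amplified lines held 32.3, 36.6 and 35.5 CPM (MDA-MB-231) and 77.9, 74.9 and 69.9 CPM (OVCAR8). The lowest amplified library was 73.1 times the highest of the other class. The log2 fold change over lines was 7.23 ± 0.64 (SE, 2 lines against 2), with an unadjusted p of 0.000248 and an edgeR FDR of 0.614, and an FDR of 0.000515 in limma-voom with the line as a block. In each library the level thus matched the class given to its line. Since the classes are named for this gene and were chosen with earlier results of these data known, its p and FDR are no independent evidence.

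GRB7 (ENSG00000141738; chr17:39737938-39747285), an adaptor protein that binds HER2, was the other marker of the classes, so the same limit holds for it. It measured 1482, 1127 and 1204 CPM in HCC1954 and 65.3, 40.5 and 20.1 CPM in SKOV3, in the order EV, SIVA-WT and SIVA-D160N. The non-amplified libraries lay between 1.34 and 3.94 CPM. The mean of HCC1954 was 452 times and that of SKOV3 14.9 times the mean of the other class. The classes did not overlap, and the log2 fold change was 7.86 ± 2.05 (SE; edgeR FDR 0.626; 6.66 in limma-voom with the line as a block, FDR 0.219), which became 3.84 when HCC1954 was left out. ERBB2 was thus at like levels in both amplified lines, and most of the GRB7 difference lay in HCC1954.

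Of the 10 genes listed for the core of the 17q12 amplicon, 9 passed the filter on low counts, and 8 of these 9 were higher in all 6 amplified libraries. The median log2 fold change over the 9 was 4.93, beside 0.03 over all genes tested, and 7 of them had an unadjusted p under 0.05. The list was drawn up because of the class itself, so its direction is no independent evidence. PPP1R1B, which encodes the phosphatase inhibitor DARPP-32, had 0 reads in all 6 non-amplified libraries. It measured 112, 65.8 and 13.1 CPM in HCC1954 and 44.6, 14.1 and 5.62 CPM in SKOV3, at least 68.4-fold higher in the lowest of these than the floor of 3 reads per library. STARD3, a cholesterol carrier of late endosomes, lay at 1431 to 1684 CPM in HCC1954 and 405 to 709 CPM in SKOV3, against 30.4 to 47.4 CPM in the others. PGAP3, which remodels the lipid anchor of GPI-linked proteins, measured 383 to 698 CPM in HCC1954 and 125 to 163 CPM in SKOV3, against 2.76 to 4.58 CPM. MIEN1, a membrane-anchored protein linked to cell migration, measured 758 to 1101 CPM in HCC1954 and 101 to 113 CPM in SKOV3, against 10.9 to 24.6 CPM. TCAP, known for its part in the muscle sarcomere, measured 39.9 to 42.3 CPM and 13.1 to 29.9 CPM in the amplified lines, against 1.10 to 1.58 CPM. STARD3 and PGAP3 also passed in limma-voom with the line as a block, with FDR of 0.00923 and 0.0187. The classes were thus far apart for these genes in both lines, by a larger factor in HCC1954 than in SKOV3 for each of STARD3, PGAP3, MIEN1, TCAP and GRB7.

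The other core genes did not share this pattern. PNMT, the enzyme that makes adrenaline, measured 3.15 to 6.24 CPM in SKOV3 but 0.229 to 0.312 CPM in HCC1954, just above the 0.211 CPM of the highest non-amplified library. IKZF3, a lymphoid transcription factor gene next to GRB7, overlapped between the classes, with 14.7 to 17.7 CPM in OVCAR8, 8.18 to 9.16 CPM in HCC1954, at most 0.184 CPM in SKOV3 and 0 reads in MDA-MB-231. NEUROD2 had too few reads to be tested.

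**Figure D1:**
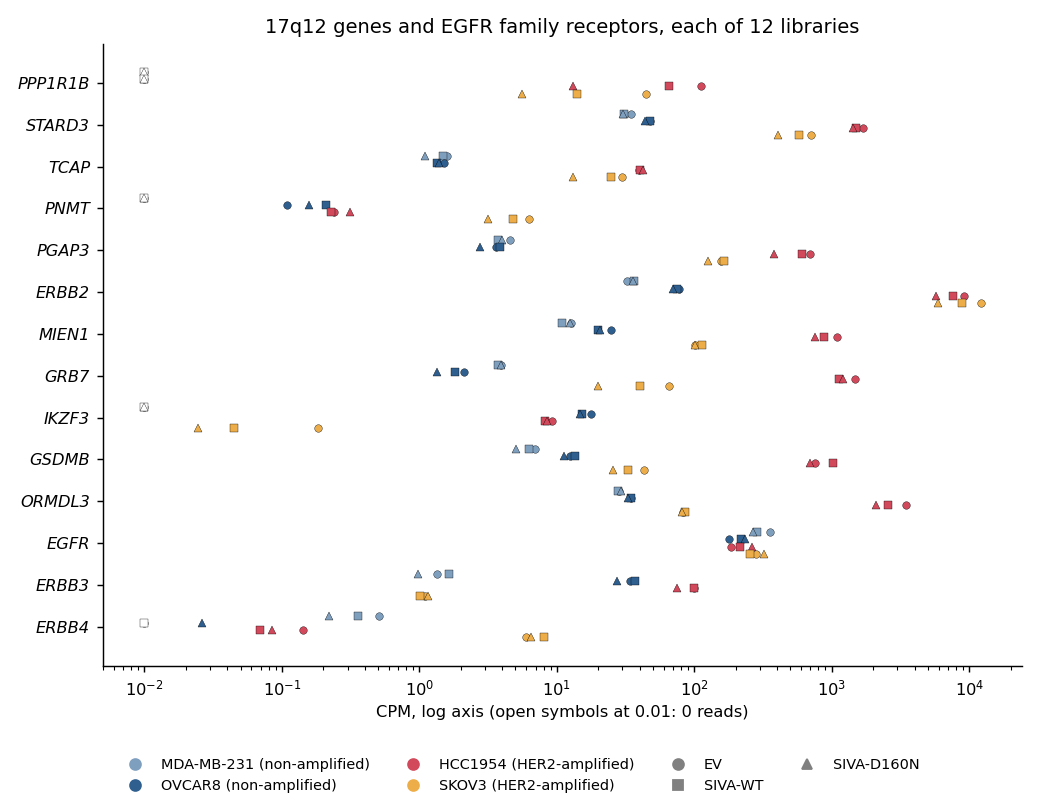
Levels of the 17q12 genes and the EGFR family receptors in each of the 12 libraries, in CPM on a log axis; colour marks the line, shape the SIVA condition, and open symbols at 0.01 stand for 0 reads. For ERBB2 the amplified libraries sit at 5693 to 12108 CPM, all above the 32.3 to 77.9 CPM of the others, while EGFR lies in 1 range in all lines.

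Ordered along chromosome 17, the genes PPP1R1B, STARD3, TCAP, PNMT, PGAP3, ERBB2, MIR4728, MIEN1 and GRB7 formed an unbroken run of 9 tested neighbours that were higher in all 6 amplified libraries (chr17:39626707-39747285, 121 kb). MIR4728 lies within ERBB2, and its reads cannot be told apart from those of its host. Over the 17246 tested genes that could be placed on GRCh38.p14 by symbol (87.7%), there were 51 runs of at least 4 neighbours that did not overlap in the same direction, and the run at ERBB2 was the longest of them. The next longest was a run of 8 genes on chromosome 11 from CWF19L2 to ATM that were lower in the amplified libraries, with a median gap of 0.52 log2 units, beside 3.10 for the run at ERBB2. Runs were counted as a description, with no test.

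Within 1000 kb of the ERBB2 start, 43 of 75 placed genes reached a mean of 1 CPM in at least 1 line. Of these 43, 16 were higher in all 6 amplified libraries, 1 was lower and 26 overlapped. HCC1954 exceeded the mean of the non-amplified lines more than 4-fold at 12 genes, SKOV3 at 8 and both at 7, with 0.5 CPM added to each mean. Beyond GRB7 the levels did not fall off evenly with distance. At IKZF3, the next tested gene, the mean was 1.09 times that of the other class in HCC1954 and 0.0107 times in SKOV3. GSDMB, a pore-forming gasdermin 217 kb from the ERBB2 start, measured 694 to 1027 CPM in HCC1954, 25.5 to 43.0 CPM in SKOV3 and 5.02 to 13.6 CPM in the others. ORMDL3, a regulator of sphingolipid synthesis, measured 2087 to 3462 CPM in HCC1954 against 81.6 to 86.0 CPM in SKOV3 and 27.7 to 34.9 CPM in the others. Both genes had higher levels in both amplified lines, but in HCC1954 the factor over the other class was 89.1 and 86.4 and in SKOV3 only 3.65 and 2.65. The factor was thus lower at GSDMB and ORMDL3 than at GRB7 in each amplified line. Past ORMDL3, PSMD3 measured 190 to 234 CPM in HCC1954, within the range of 176 to 246 CPM of the others.

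**Figure D2:**
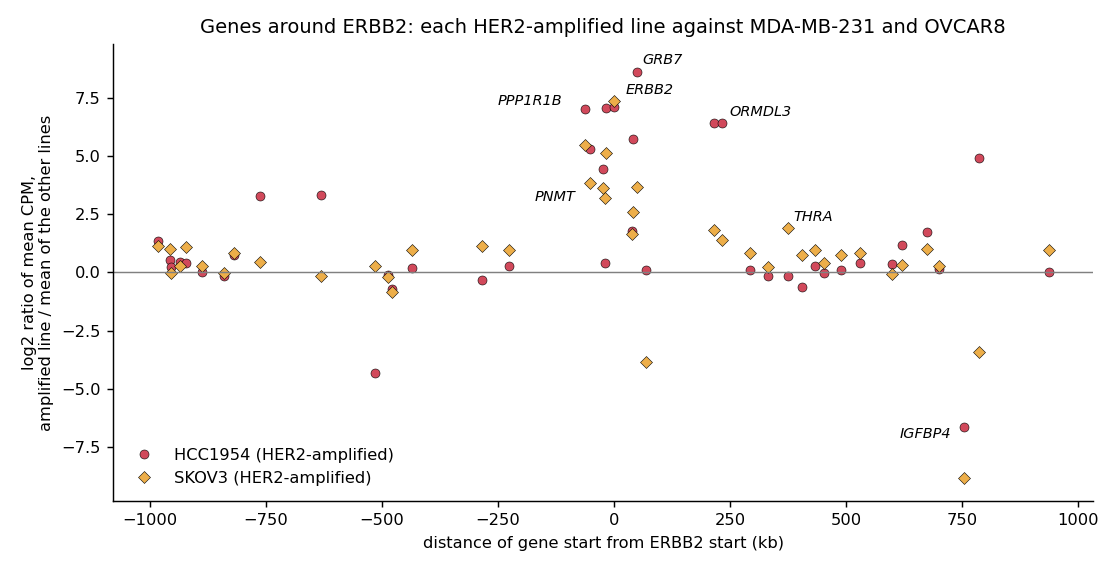
Log2 ratio of the mean CPM of each HER2-amplified line to the mean of MDA-MB-231 and OVCAR8 (0.5 CPM added) for 43 genes, against the distance of the gene start from the ERBB2 start in kb. From PPP1R1B at -61.4 kb to GRB7 at 49.8 kb the points of both lines lie above 0, with PNMT at 0.39 in HCC1954 and 3.18 in SKOV3; ORMDL3 lies at 6.41 in HCC1954 and 1.39 in SKOV3, and IGFBP4 lies far below 0 in both.

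Of 26 tested genes of the 17q12-q21 flank, 4 were higher (15.4%, beside 9.89% of all genes) and 1 was lower (3.85%, beside 9.57%) in all amplified libraries. The median log2 fold change was 0.50. Beside GSDMB and ORMDL3 the higher ones were LASP1 (648 to 848 CPM against 350.1 to 483 CPM), an actin-binding protein, and MSL1, for which the closest libraries differed by a factor of 1.05. A further 10 flank genes (38.5%, beside 13.8% of all genes) lay above all non-amplified libraries in SKOV3 and not in HCC1954, among them CDK12 at 186 to 215 CPM, MED1 at 197 to 226 CPM and THRA at 59.4 to 81.6 CPM, and 2 (7.69%, beside 12.5%) did so in HCC1954 and not in SKOV3. TOP2A, the topoisomerase often gained together with ERBB2, overlapped between the classes (609 to 858 CPM against 484 to 741 CPM). IGFBP4, which binds insulin-like growth factors, was the member that was lower. It measured 370.3 to 439 CPM in MDA-MB-231 and 76.8 to 87.8 CPM in OVCAR8, against at most 2.31 CPM in HCC1954 and 0.0985 CPM in SKOV3 (log2 fold change -7.89 ± 2.28, FDR 0.632).

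Among the partners of HER2, EGFR overlapped between the classes. It measured 184 to 323 CPM in the amplified and 179.6 to 356 CPM in the other libraries, with a log2 fold change of -0.05 ± 0.37 (SE). ERBB3, the partner with little kinase activity of its own, measured 74.8 to 100.1 CPM in HCC1954 and 27.5 to 37.1 CPM in OVCAR8 but 0.974 to 1.65 CPM in MDA-MB-231 and 1.01 to 1.16 CPM in SKOV3. ERBB4 measured 5.98 to 8.07 CPM in SKOV3 and at most 0.512 CPM elsewhere. Each amplified line was thus above the non-amplified class for a different partner of HER2. Of 10 tested ligands of the family, TGFA was higher in all amplified libraries (17.3 to 57.7 CPM against 2.82 to 11.2 CPM) and HBEGF was lower (1.34 to 17.2 CPM against 31.2 to 309.7 CPM), and the other 8 overlapped. This was 10% in each direction, near the 9.89% and 9.57% of all genes. TGFA binds EGFR, and HBEGF binds EGFR and ERBB4.

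Of 24 tested genes of the adaptors and the PI3K pathway, 3 were higher and 3 lower in all amplified libraries. This was 12.5% each, near the 9.89% and 9.57% of all genes. The median log2 fold change was -0.17. AKT1, the kinase downstream of PI3K, measured 172 to 294 CPM against 93.7 to 116 CPM (log2 fold change 1.12 ± 0.38, edgeR FDR 0.668). PIK3R1, the regulatory subunit of PI3K, measured 58.4 to 216 CPM in HCC1954 and 41.4 to 49.5 CPM in SKOV3, against 20.7 to 25.7 CPM. SOS1 was higher by a factor of 1.06 between the closest libraries. PIK3CD, a catalytic subunit best known in leukocytes, measured 2.05 to 16.3 CPM against 20 to 31.3 CPM. IRS2, an insulin receptor substrate, was lower with the closest libraries apart by a factor of 1.08. PIK3CA overlapped between the classes (29.3 to 49.3 CPM against 24.1 to 48.0 CPM). PIK3R2 had too few reads to be tested, under 2 identifiers that share its symbol.

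Transcripts that ERK signalling is known to induce mostly overlapped between the classes. Of 18 tested genes none was higher, 4 were lower in all 6 amplified libraries (22.2%, beside 9.57% of all genes) and 14 overlapped. A total of 15 had a log2 fold change below 0 (median log2 fold change -1.09), but none had an unadjusted p under 0.05. FOSL1, a subunit of AP-1, measured 22.3 to 81.8 CPM in HCC1954 and 173 to 223 CPM in SKOV3, against 383 to 633 CPM. MYC measured 56.8 to 146 CPM against 161 to 310.1 CPM. DUSP5, a phosphatase of ERK, and ETV5, an ETS factor, were lower with the closest libraries apart by factors of 1.07 and 1.06. The MDA-MB-231 control library held the highest level of each of these 4 genes, and the mean of MDA-MB-231 lay above both amplified lines for 15 of the 18. The mean of OVCAR8 did so for 7 and lay below both amplified lines for 6, among them DUSP4, another phosphatase of ERK, at 0.436 CPM against 84.1 in HCC1954 and 44.5 in SKOV3. The 2 non-amplified lines thus did not share 1 level of these transcripts.

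Epithelial genes divided HCC1954 from the other 3 lines more than they divided the classes. All 30 tested genes of the epithelial list had a log2 fold change above 0, with a median log2 fold change of 5.42. In all 6 amplified libraries 9 were higher (30%, beside 9.89% of all genes). However, 20 of the other 21 lay above all non-amplified libraries in HCC1954 and not in SKOV3 (66.7% of the 30, beside 12.5% of all genes). CDH1, the gene for E-cadherin, measured 689.5 to 805 CPM in HCC1954, 0.134 to 0.493 CPM in SKOV3 and at most 0.475 CPM in the non-amplified lines. The 5 members with the widest gap were MAL2, ELF3, MARVELD2, PPL and INADL. MAL2, a protein of vesicle transport to the apical membrane, measured 300.4 to 405 CPM in HCC1954 and 3.20 to 24.5 CPM in SKOV3, against at most 0.237 CPM. ELF3, an epithelial ETS factor, measured 366 to 406 CPM in HCC1954 but only 1.65 to 3.04 CPM in SKOV3, against at most 0.127 CPM. MARVELD2, which encodes tricellulin of the tight junction, measured 29.8 to 33.2 CPM and 13.8 to 18.4 CPM, against 0.926 to 2.55 CPM. INADL (current symbol PATJ), a scaffold of the apical polarity complex, measured 82.5 to 109 CPM and 46.8 to 54.0 CPM, against 8.50 to 11.5 CPM (log2 fold change 2.90 ± 0.54; limma-voom FDR 0.0384). Among these 5, MARVELD2 and INADL were thus the closest in level between the amplified lines, though higher in HCC1954, whereas MAL2 and ELF3 were mainly HCC1954 genes. In bulk RNA a smaller share of cells that express a gene and less RNA per cell cannot be told apart.

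Keratins followed a similar course. Of 12 tested, 5 were higher in all amplified libraries (41.7%, beside 9.89% of all genes) and 7 overlapped, and the median log2 fold change was 4.43. KRT14, a basal keratin, measured 7.34 to 12.4 CPM in HCC1954 and 6.69 to 16.3 CPM in SKOV3, against at most 0.105 CPM. KRT17 measured 482 to 879 CPM in HCC1954 and 7.64 to 61.0 CPM in SKOV3, against at most 0.102 CPM. KRT80 was the keratin with the higher levels in SKOV3, 476 to 820 CPM, against 109 to 189.7 CPM in HCC1954 and 23.1 to 75.5 CPM in the others. KRT5 and KRT16 did not overlap either, but SKOV3 held at most 0.640 and 0.911 CPM of them. Reads can be shared between keratin genes of like sequence, so these levels are uncertain where a gene was low. KRT8 and KRT18, the keratins of simple epithelia, overlapped between the classes.

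Of 23 tested mesenchymal genes, 5 were higher (21.7%, beside 9.89% of all genes) and 1 was lower (4.35%, beside 9.57%) in all amplified libraries. The median log2 fold change was 0.05. MMP2, the collagenase gelatinase A, had 0 reads in all 6 non-amplified libraries, against 28.1 to 50.04 CPM in HCC1954 and 20.8 to 54.0 CPM in SKOV3. COL5A1, a fibrillar collagen chain, measured 203 to 362 CPM in HCC1954 and 596 to 1219.5 CPM in SKOV3, against 14.3 to 16.2 CPM in MDA-MB-231 and 0.0789 to 0.109 CPM in OVCAR8. SNAI2, the EMT factor Slug, measured 22.5 to 86.2 CPM against 2.77 to 10.1 CPM, and COL3A1 and POSTN made up the rest of the higher ones. COL6A3 was lower, with at most 3.35 CPM in the amplified lines against at least 21.4 CPM. VIM, ZEB1 and AXL were high in SKOV3 as in the non-amplified lines and low in HCC1954, with VIM at 95.1 to 288 CPM in HCC1954 and 2942 to 3955 CPM in the other lines. COL1A1 overlapped between the classes (11.9 to 504 CPM against 3.40 to 339 CPM). Collagen genes thus went both ways, and VIM, the usual marker of the mesenchymal state, did not separate the classes.

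**Figure D3:**
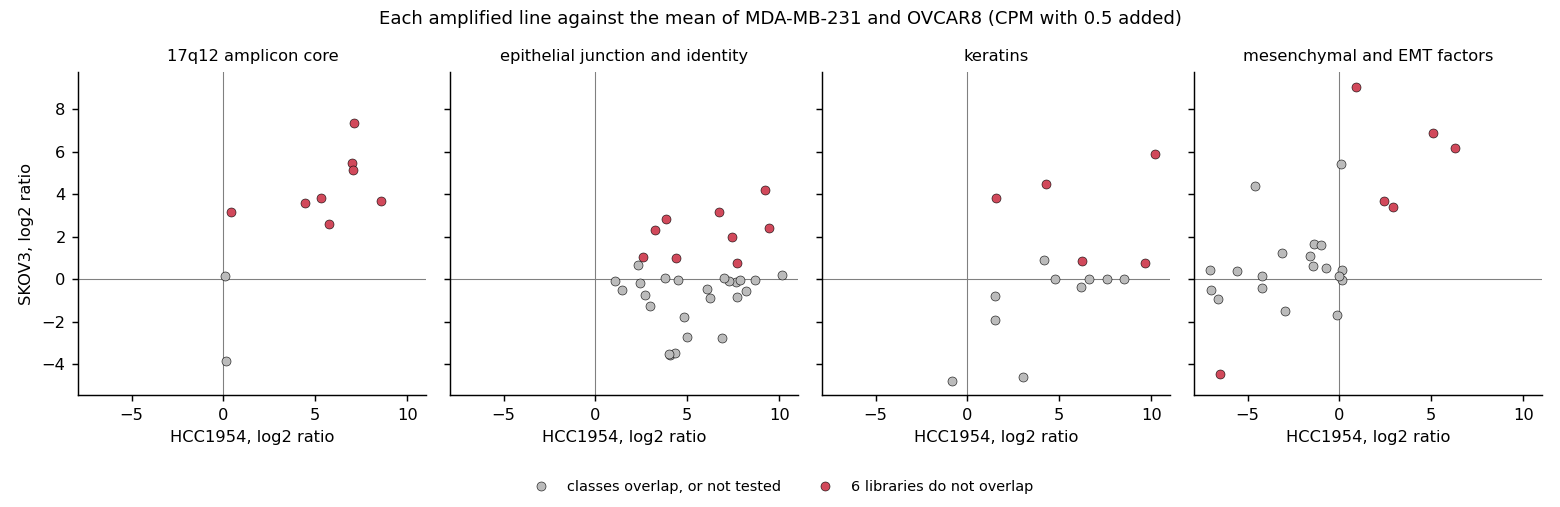
Log2 ratio of HCC1954 (x axis) and of SKOV3 (y axis) to the mean of MDA-MB-231 and OVCAR8, with 0.5 CPM added, for each member of 4 gene lists; red points are genes whose 6 libraries per class do not overlap. Of the 9 tested amplicon genes 8 are red, while most epithelial points lie to the right of 0 in HCC1954 and at or below 0 in SKOV3.

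Transcription factors of luminal breast cells were mostly at higher levels in HCC1954, with 8 of 10 tested above all non-amplified libraries in that line and not in SKOV3 (beside 12.5% of all genes), including FOXA1 (104 to 125 CPM) and SPDEF (41.6 to 92.4 CPM). ESR1, the oestrogen receptor, was higher in both amplified lines, at 7.34 to 12.2 CPM in HCC1954 and 0.739 to 2.40 CPM in SKOV3, against 0 or 1 read per library in the others. TRPS1, a GATA-type repressor used as a breast marker, measured 27.6 to 46.9 CPM against 7.0 to 16.4 CPM. The tissue labels were checked with defining markers. Of 6 breast markers 2 were tested, and SCGB2A2 had 0 reads in every library. GATA3 measured 42.2 to 49.5 CPM in HCC1954 but 1.80 to 2.87 CPM in MDA-MB-231, below the 5.70 to 6.30 CPM of OVCAR8. PAX8, a marker of Mullerian origin, measured 229 to 243 CPM in SKOV3 and 61.4 to 76.2 CPM in OVCAR8, against 1.54 to 3.45 CPM in both breast lines. Of 6 tested ovarian markers 3 were higher in all amplified libraries of both tissues (50%, beside 9.89% of all genes). These were FOLR1, the folate receptor (4.22 to 71.1 CPM against 0.423 to 1.07 CPM), MUC16, the gene for CA125 (65.7 to 114 CPM in HCC1954 and 0.553 to 1.58 CPM in SKOV3), and EMX2, at 0.344 CPM or less. Of 10 markers of blood, endothelial and liver cells none separated the classes, HBB and MS4A1 had 0 reads throughout, and PTPRC reached 0.619 CPM in HCC1954 only. PECAM1 (32.3 to 62.4 CPM) and CDH5 (12.4 to 25.3 CPM), known from endothelium, stood out in HCC1954, where VWF, at 1.19 to 3.41 CPM, overlapped with MDA-MB-231.

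Of 7 tested genes of thyroid hormone handling, 3 were higher (42.9%, beside 9.89% of all genes) and 1 was lower (14.3%, beside 9.57%) in all 6 amplified libraries. DIO2 (ENSG00000211448), the deiodinase that makes active thyroid hormone within cells, measured 35.3, 99.5 and 168 CPM in HCC1954 and 15.4, 84.6 and 129 CPM in SKOV3, in the order EV, SIVA-WT and SIVA-D160N. The non-amplified libraries held at most 0.316 CPM, or 12 reads. The lowest amplified library was 48.6 times the highest of the others, and the log2 fold change was 9.08 ± 0.90 (edgeR FDR 0.614; limma-voom FDR 0.0294). THRB, the thyroid hormone receptor beta, measured 18.7 to 28.6 CPM and 28.2 to 66.9 CPM, against 0.301 to 0.635 CPM (limma-voom FDR 0.0242). HR, a corepressor that binds thyroid hormone receptors, measured 15.8 to 31.3 CPM and 57.4 to 72.5 CPM, against at most 1.29 CPM. SLC16A10, a transporter of thyroid hormones, was lower, with 0.227 to 1.03 CPM against 1.10 to 3.53 CPM. The activating enzyme and 1 receptor of the hormone, THRB, were thus at levels in both amplified lines that neither other line reached in any condition. The other 3 tested genes of the list overlapped between the classes, KLF9 among them. KLF9 measured 15.1 to 28.0 CPM in MDA-MB-231 and 9.41 to 18.2 CPM in HCC1954. It was lower in SKOV3 (0.764 to 2.90 CPM) and in OVCAR8 (0.421 to 0.738 CPM). THRA, the gene of thyroid hormone receptor alpha, also overlapped between the classes. Its level was 13.3 to 19.7 CPM in HCC1954 and 59.4 to 81.6 CPM in SKOV3, against 13.7 to 21.8 CPM in the non-amplified lines.

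Genes of lipid synthesis and of the G1 phase of the cell cycle separated the classes about as often as all genes did, with 21.4% and 18.8% that did not overlap beside 19.5%. Of 14 tested lipid genes HMGCS1, an early enzyme of cholesterol synthesis, was higher (180.3 to 348 CPM against 54.4 to 80.3 CPM), as was ACACA, the acetyl-CoA carboxylase that starts fatty acid synthesis (157 to 266 CPM against 107 to 136 CPM). FADS2, a fatty acid desaturase, was lower (9.43 to 57.2 CPM against 83.2 to 255 CPM), and the other 11, FASN among them, overlapped. The median log2 fold change was 0.09. Of 16 tested cell cycle genes none was higher and 3 were lower in all amplified libraries: CCND3 (37.1 to 56.8 CPM against 74.5 to 132 CPM), the inhibitor gene CDKN1B (16.0 to 20.9 CPM against 25 to 38.2 CPM), and CDK2, apart by a factor of 1.03 between the closest libraries. CCND1 was highest in HCC1954 and overlapped between the classes. CDKN2A had 0 reads in MDA-MB-231 and SKOV3, 1 line of each class.

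The widest gaps of all lay mostly outside these lists. The 12 named genes with the widest gap upwards differed by 6.69 to 10.25 log2 units between the closest libraries, and 6 of them had 0 reads in every non-amplified library. SULF2, a sulfatase that edits heparan sulfate at the cell surface, led with 248 to 312 CPM in HCC1954 and 60.5 to 82.6 CPM in SKOV3, at least 737-fold higher than the floor of 3 reads per library. GABRE, a GABA-A receptor subunit, measured 183 to 332 CPM and 20.9 to 27.4 CPM against 0 reads. MMP2 and PPP1R1B, described above, belonged to the same 12. XYLT1, which starts glycosaminoglycan chains on proteoglycans, measured 10.4 to 21.5 CPM and 35.6 to 37.9 CPM against 0 reads. NLRP2, a NOD-like receptor protein, measured 75.2 to 90.6 CPM and 22.7 to 34.2 CPM against 0 or 1 read. ROS1, a receptor tyrosine kinase, measured 10.7 to 45.5 CPM against at most 2 reads. BTBD11, FBXL16, DPYSL5, ZNF597 and the long noncoding RNA CASC9 completed the list, with at least 5.25 CPM in each amplified library. GABRE belonged to a run of 5 neighbours on chromosome X, with GABRA3, GABRQ, MAGEA3 and MAGEA6 (chrX:151953124-152769689), that were all higher in both amplified lines, although MAGEA3 and MAGEA6 are nearly identical and can share reads.

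In the other direction the 12 genes differed by 6.99 to 8.99 log2 units, with at least 14.7 CPM in each non-amplified library and at most 6 reads in any amplified one. CDH4, the gene for R-cadherin, led with 245 to 262 CPM in MDA-MB-231 and 37.3 to 39.8 CPM in OVCAR8, against 0 or 1 read per amplified library. MB21D1, which encodes the DNA sensor cGAS, measured 36.1 to 45.5 CPM and 71.5 to 76.4 CPM against at most 0.0955 CPM. APBB1IP, an adaptor of integrin activation also called RIAM, measured 56.5 to 80.3 CPM against at most 0.148 CPM and had the lowest unadjusted p of the 24 genes (5.57e-05). PNMAL1, LINC00667 and KHDC1 were at 0 reads in all amplified libraries. SLC17A9, the vesicular nucleotide transporter, GPX3, a secreted glutathione peroxidase, LAYN, a hyaluronan receptor, and ARMCX1 had at most 4 reads there. MT1E was also among them, but its reads can be shared with other metallothionein genes. For the 24 genes of both directions the unadjusted p lay between 5.57e-05 and 0.00603 and none passed the FDR by edgeR, and limma-voom with the line as a block called 6 of 12 in each direction.

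**Figure D4:**
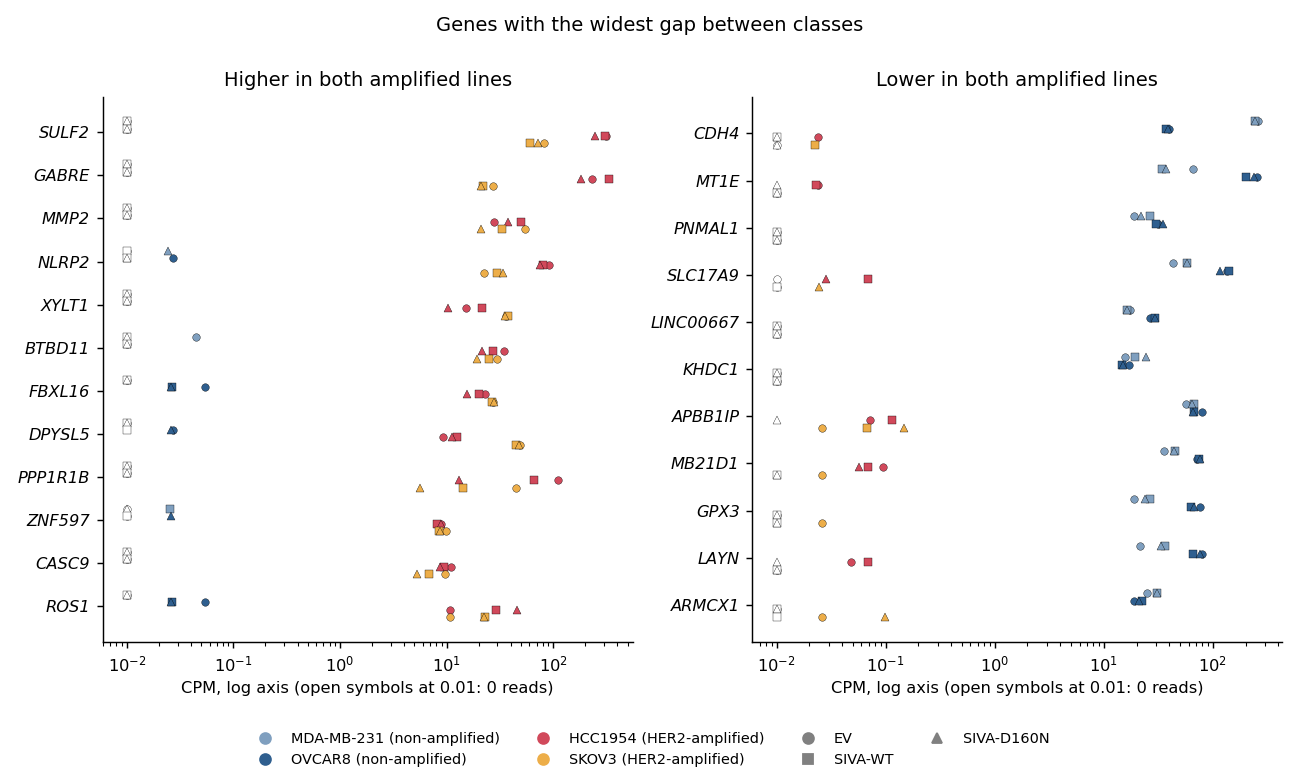
CPM on a log axis in each of the 12 libraries for the genes with the widest gap in each direction, 1 of them left out; colour marks the line, shape the SIVA condition, and open symbols at 0.01 stand for 0 reads. SULF2 lies at 60.5 CPM or more in both amplified lines and at 0 reads in the others, and CDH4 shows the reverse.

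The response to SIVA was compared between the classes with a term for the line and the interaction of class with condition. Of 17211 genes tested, none passed an FDR of 0.05 for SIVA-D160N against EV (0% called, smallest FDR 0.111) or for SIVA-WT against EV (0% called, smallest FDR 0.678) by edgeR. At an unadjusted p under 0.05 there were 1010 genes (5.87%) for SIVA-D160N and 377 (2.19%) for SIVA-WT. DESeq2 called 34 genes for SIVA-D160N and 0 for SIVA-WT. Both comparisons share the EV libraries. FLNC, a filamin that crosslinks actin, had the smallest FDR for SIVA-D160N among the genes given here and was chosen for mention after its values were seen. It measured 0.0263, 0.492 and 2.02 CPM in SKOV3 in the order EV, SIVA-WT and SIVA-D160N, and at most 0.0567 CPM in HCC1954, against 242, 288 and 358 CPM in MDA-MB-231 and 2196, 2108 and 2147 CPM in OVCAR8 (interaction 5.70 log2 units, edgeR FDR 0.111; 5.79 without the HCC1954 control library, FDR 0.0809). Its class difference thus rested on amplified libraries with 0 to 82 reads.

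ERBB2 itself was lowest in SIVA-D160N and highest in EV in both amplified lines. The SIVA-D160N library had 0.621 times the EV level in HCC1954 and 0.493 times in SKOV3, against 1.10 times in MDA-MB-231 and 0.897 times in OVCAR8. With SIVA-WT the ratios were 0.828 and 0.730 in the amplified lines and 1.13 and 0.961 in the others. The interaction for SIVA-D160N was -0.84 ± 0.21 log2 units (SE), the ratio being lower in the amplified class. It did not pass over all genes (edgeR FDR 0.583) and was -0.98 without the HCC1954 control library (FDR 0.274). PPP1R1B showed the same order with larger ratios, 0.118 in HCC1954 and 0.126 in SKOV3 for SIVA-D160N. Of the 9 tested amplicon genes, 6 were lower in SIVA-D160N than in EV in both amplified lines, beside 25.4% of all genes tested. They were ERBB2, GRB7, PPP1R1B, PGAP3, STARD3 and IKZF3, the last at a mean of only 0.0846 CPM in SKOV3. In both other lines 5 were lower, beside 24.0%. PPP1R1B, PNMT and IKZF3 could not be among these 5, since they had 0 reads in MDA-MB-231. MIEN1 and ORMDL3 were lower in SIVA-D160N in HCC1954 (0.688 and 0.603 times EV) and close to EV in SKOV3 (1.00 and 0.993 times). The amplicon genes thus did not change by 1 common factor within a line. DIO2 went the other way, to 4.75 times EV in HCC1954 and 8.42 times in SKOV3 (interaction 1.97 ± 0.78, edgeR FDR 0.811), and its interaction was 2.43 without the HCC1954 control library (FDR 0.259). Without that library the ratios to EV can be given in SKOV3 only, where 8 of the 9 amplicon genes were lower in SIVA-D160N, beside 49.9% of all genes. Among the other lists this share in SKOV3 ran from 16.7% for the ovarian markers to 100% for the 18 ERK transcripts. In both amplified lines it was 64.3% for the lipid genes, 55.6% for the ERK transcripts and 8.70% for the mesenchymal genes. A fall in SIVA-D160N was thus not particular to the amplicon. Against the SIVA-WT library of HCC1954, its SIVA-D160N library had 0.20 times the level for PPP1R1B, 0.749 for ERBB2, 0.856 for MIEN1, 0.807 for ORMDL3 and 1.68 for DIO2. Each of these 5 ratios lay on the same side of 1 as the ratio to EV in HCC1954, but GRB7 did not keep its side. In HCC1954 the GRB7 level in SIVA-D160N was below that in EV and above that in SIVA-WT. In both amplified lines 5 of the 9 amplicon genes were lower in SIVA-D160N than in SIVA-WT, as were 5440 of the 19672 genes tested. SIVA1 itself measured 52.3, 106 and 112 CPM in SKOV3 and 0, 37.7 and 26.3 CPM in HCC1954, and 28.3, 81.1 and 68.4 CPM in MDA-MB-231 and 66.2, 177 and 162 CPM in OVCAR8. Expression of SIVA was thus above the control in each line, without an overlap-free difference between the classes.

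**Figure D5:**
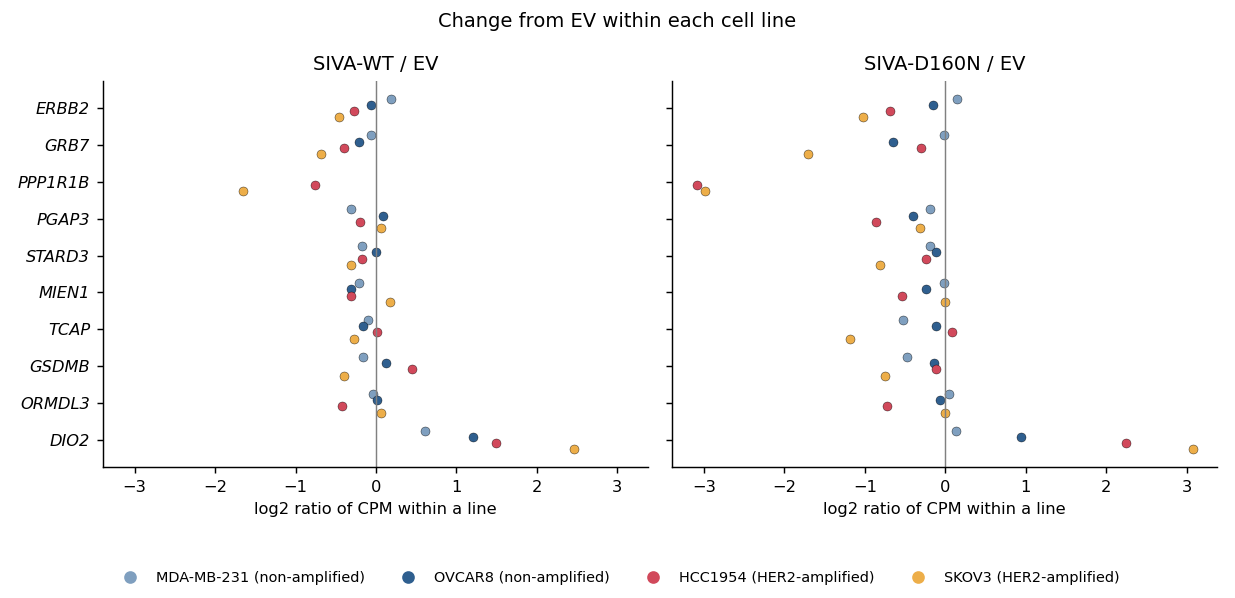
Log2 ratio of CPM of SIVA-WT (left) and SIVA-D160N (right) to EV within each line for the amplicon genes, GSDMB, ORMDL3 and DIO2; colour marks the line, each point is 1 library over 1 library, and PPP1R1B is missing for the lines with 0 reads. For ERBB2 both amplified lines lie left of 0 in both panels, at 0.621 and 0.493 times EV for SIVA-D160N; the DIO2 points of the non-amplified lines rest on at most 12 reads per library.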

How the data were processed

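RNA-seq was measured in 12 libraries of 4 cell lines, 1 library per line and SIVA condition. Per the submitters' processing notes, reads were aligned to GRCh38 with STAR 2.5.3a and handled with edgeR, and the authors deposited raw read counts per gene without normalization; the deposited CPM table was not used here. The 3 libraries of a line share their source, so counts were summed per line and tested with edgeR 4.0.16 (quasi-likelihood, TMM, filterByExpr by class, Benjamini-Hochberg) as 2 lines against 2; genes read in a single line can fail the filter. Thresholds were FDR 0.05 and an absolute log2 fold change of 1.5. Class by condition was tested in all 12 libraries with the line as a term. Overlap was judged on log2 CPM with a prior count of 2. Alternatives used DESeq2 1.42.0, limma 3.58.1, other filters and scalings, and left-out libraries and lines. Scripts were tested on simulated data. The HER2 classes, members and gene lists were chosen with earlier results of these data known. Named genes were ERBB2, GRB7, DIO2, SIVA1, listed genes that did not overlap (up to 5 per list), and the 12 widest gaps per direction, clone names left out; a few genes that the rule names are not reported here; the EGFR family and amplicon core are given in full, and further list members, named as context, were chosen after their values were seen. The edgeR and DESeq2 p-values between the classes measure the spread between the summed lines. Those of limma-voom with the line as a block rest in part on the spread between libraries of a line. Separate cultures are not stated, so the interaction p-values measure the spread between these libraries.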

Additional observations from a re-analysis of the deposited data

Results flagged for a closer look

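Of 69 groups of 6 libraries examined (the amplicon genes, the EGFR family, SIVA1, DIO2 and the 24 genes with the widest gap, by class), 4 held a library far from the other 5 on the log2 scale by Dixon's criterion. Its nominal rate of about 1 in 20 would give 3.45. Each group mixes 2 lines, so that rate need not hold here and the 2 numbers cannot be compared. SIVA1 stood out in the amplified class, with 0 CPM in the HCC1954 control library. BTBD11 stood out in the non-amplified class, with 0.0445 CPM in 1 MDA-MB-231 library and 0 reads in the others. In the amplified class GPX3 had 0.0264 CPM in 1 library and ARMCX1 0.0985 CPM in 1 library, both in SKOV3. The values of BTBD11, GPX3 and ARMCX1 stand for at most 4 reads.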

How the results depend on the processing

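The count of genes past the thresholds between the classes was 0 under 13 alternatives, and 900 with DESeq2 on the summed counts (518 higher, 382 lower) and 96 with limma-voom on 12 libraries with the line as a replicate block (46 higher, 50 lower; correlation within a line 0.88). Replicate numbers name only the SIVA condition and pair no samples, so the line was the block. ERBB2 kept its direction throughout, at 7.23 log2 units with DESeq2 (FDR 5.87e-19) and 7.42 in the limma-voom block fit (FDR 0.000515), and between 6.81 and 7.87 when lines were left out in turn. GRB7 gave 7.87 with DESeq2 (FDR 0.000132), 6.66 in the limma-voom block fit (FDR 0.219) and 3.84 to 8.80 when lines were left out, the lowest without HCC1954. The interaction with SIVA-D160N gave 0 genes, against 136 when all genes with at least 1 count were tested, 34 with DESeq2, 1 without the HCC1954 EV library (CTD-3252C9.4) and 6 without SKOV3; leaving out lines gave 0 to 6. With SIVA-WT it gave 14 over all genes with a count and 0 to 2 when lines were left out, with 1 without HCC1954 and 2 without SKOV3. The ERBB2 interaction with SIVA-D160N kept its sign under the 10 alternatives and passed only over all genes with a count (-0.84, FDR 0.0156); without the line as a replicate block it was -0.80 (FDR 1). The number of genes whose classes did not overlap was 863 with a gap of at least 2-fold and 7088 from the EV libraries alone. Depth limits the genes with 0 reads in a class, whose folds are bounds set by a floor of 3 reads per library.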
